A study of Mus musculus with 20 samples.

Results

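The 10 genes described here belong to fibroblast growth factor (FGF) signalling: the ligands Fgf2, Fgf7 and Fgf10, the receptors Fgfr1, Fgfr2, Fgfr3 and Fgfrl1, and the feedback genes Spry1, Spry2 and Dusp6. They were chosen by name, and every probe set that the platform annotation gave to 1 of these symbols alone was used. This gave 18 probe sets of 45037, controls left out, and 10 of the 18193 genes measured. They were followed in clonal mouse fibroblast lines that were all derived from Swiss 3T3, an immortalized embryonic fibroblast line. The preadipose lines, committed to become fat cells when induced, were Swiss 19 with 2 arrays and Swiss 2, Swiss 8 and Swiss 9 with 3 arrays each. The non-adipogenic lines were Swiss 3, Swiss 5 and Swiss 22 with 3 arrays each. All 7 lines were grown in DMEM with bovine serum, without an inducer of differentiation, and RNA was taken while the cells were still dividing. Each line is 1 clone, so a class is represented by 4 or 3 clones, and the labels leave unstated whether the arrays of one line are separate cultures.

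FGF ligands bind cell-surface receptor tyrosine kinases together with heparan sulfate, and the activated receptor signals through the adaptor FRS2, RAS and the kinase ERK. ERK signalling induces Sprouty proteins and the ERK phosphatase Dusp6, which then dampen the pathway that induced them. In fat, Fgf10 and the receptor isoform that it binds are known for a role in growth of preadipocytes, and Fgf2 is widely used to expand mesenchymal cells in culture.

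Levels are given as scaled intensity, in which each array was scaled linearly to a trimmed mean of 500, and a line counted as above background when its mean exceeded the 95th percentile of bacterial control probe sets (76.5 to 143 over the lines). Log2 differences come from quantile-normalized log2(intensity + 32), which compresses dim genes, so they are smaller than the folds of scaled intensity. The 20 arrays differed 5.97-fold in mean intensity, and 9 hybridization-spike probe sets split them into 11 dim arrays (all of Swiss 2, Swiss 8 and Swiss 9 and replicates 1 and 2 of Swiss 3) and 9 bright ones. Brightness therefore ran largely with class. The dim arrays held Swiss 3 as the lone non-adipogenic line and the bright arrays Swiss 19 as the lone preadipose line, so each difference within them sets 3 lines against 1, and its p assumes that the lone line varies like the others. All 8 fibroblast markers were above background in every line, with summed levels of 276272 to 332416 in preadipose lines and 235646 to 256879 in non-adipogenic lines. The brightest markers weigh most in these sums: 5 markers were higher in preadipose lines and 3 lower (Pdgfrb, Thy1 and Sparc). Other probe sets of Col1a1 and Col3a1 were lower in preadipose lines (log2 differences -0.44 and -0.47), those of Vim and Fn1 higher, and those of Col1a2 went both ways. Markers of other cells were mixed. Of 6 macrophage and leukocyte markers, Ptprc and Itgam were above background in no line and Cd68, Csf1r, Adgre1 and Lyz2 in every line. Csf1r, a growth factor receptor of macrophages, averaged 654 ± 74.4 in preadipose lines and 462 ± 35.7 in non-adipogenic lines, without overlap of line means (adjusted p = 0.0822). The summed level of these 6 was 1222 to 1589 in preadipose lines and 1076 to 1976 in non-adipogenic lines. Of 5 endothelial markers, Pecam1 and Tie1 were above background in no line and Cdh5 and Kdr in 6, with sums of 365 to 554 in preadipose lines and 469 to 701 in non-adipogenic lines. Of 7 epithelial markers, Cdh1, Krt19 and Esrp1 were above it in no line and Epcam, Krt8 and Esrp2 in every line, with sums of 852 to 1286 in preadipose lines and 977 to 1367 in non-adipogenic lines. Of 4 fat cell markers measured, Cidec and Lep were above it in no line, Adipoq in 1 non-adipogenic line and Fabp4 in every line, with sums of 374 to 1807 in preadipose lines and 912 to 1634 in non-adipogenic lines. Of 4 skeletal muscle markers, Myog was above it in no line, Myod1 in 1 preadipose and 3 non-adipogenic lines and Acta1 and Ckm in every line, with sums of 666 to 848 in preadipose lines and 667 to 766 in non-adipogenic lines. The other probe sets of Epcam, Esrp2, Cdh5, Myod1 and Ptprc were above background in no line, and those of Krt8 in 1 and 0 lines. Those of Csf1r and Ckm were above it in every line, and those of Fabp4 in 0, 5 and 7 lines. None of these marker genes passed between the classes, and the part of other cell types in the results was not tested. These arrays measure RNA from whole cultures, so a smaller number of cells that express a gene and less RNA per cell cannot be told apart.

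None of the 10 genes passed the test between the classes, made with limma on the 7 line means at an adjusted p below 0.05. Over all genes 276 passed, which is 1.52% of those tested: 105 higher in preadipose lines (0.577%) and 171 lower (0.940%). At an unadjusted p below 0.05, 3 of the 10 genes passed (Fgf7, Fgf10 and Spry2), against 15.6% of all genes. The quantile-normalized line means of the same 3 genes did not overlap between the classes, against 14.0% of all genes. Of the 18 probe sets, 0 passed in the fit over all probe sets, in which 0.819% passed, and 5 had line means that did not overlap, against 11.6% of all probe sets. The lines themselves did differ. In the F test among the 7 lines 9 of the 10 genes passed, all but Fgf2, where 35.8% of all genes passed. With arrays centred on their medians Fgf2 passed (adjusted p = 0.0441) and Fgfr3 did not (adjusted p = 0.168), and without normalization all 10 passed. P-values of that test measure only the spread between arrays of a line, which may be technical, and the number of arrays limits their precision.

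**Figure D1:**
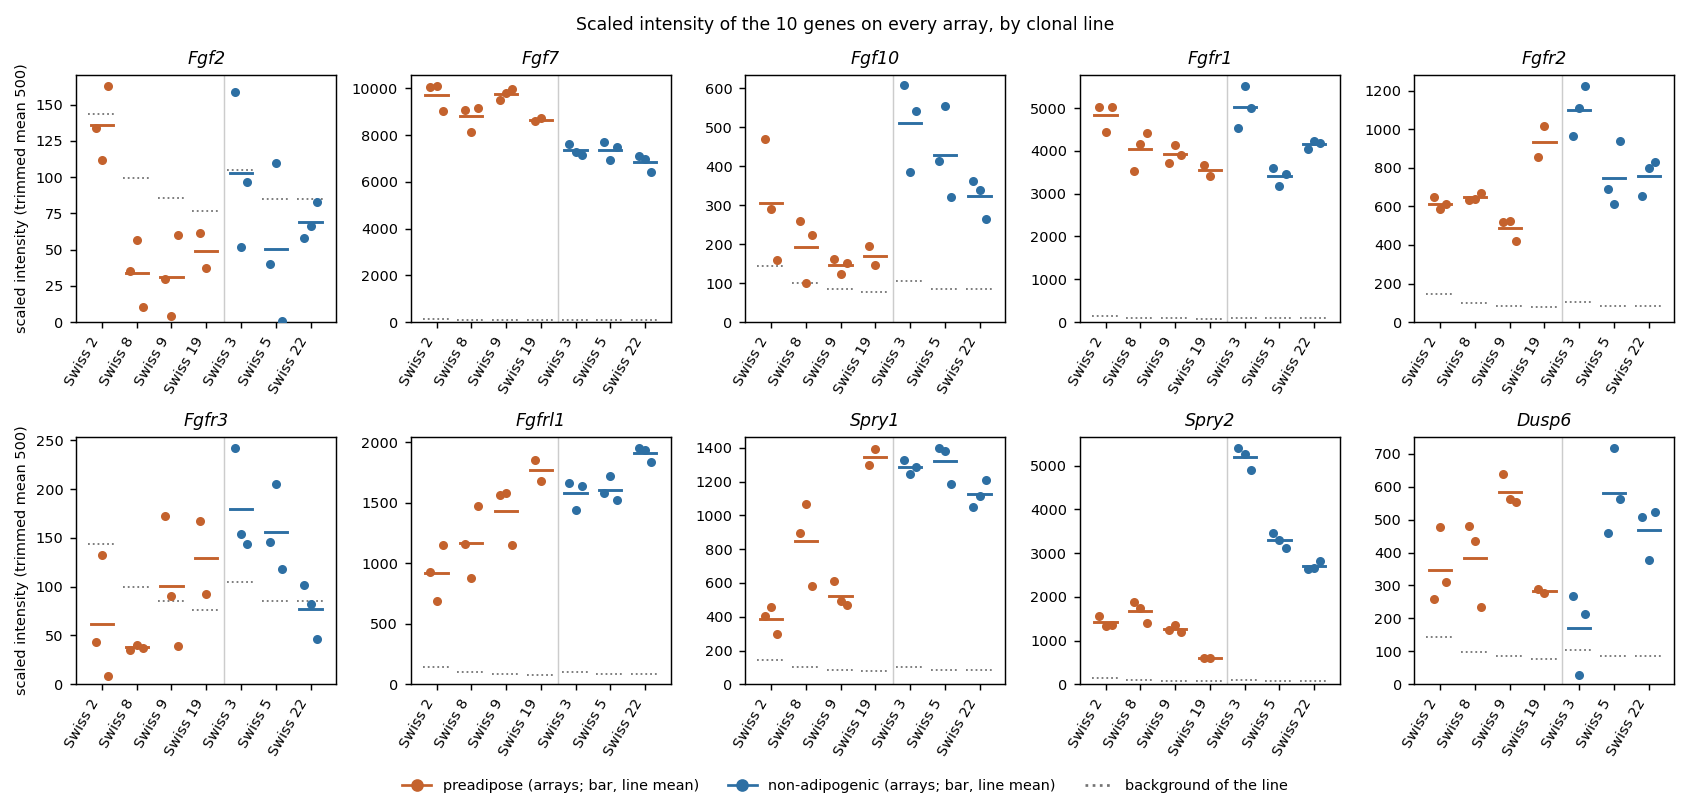
Scaled intensity (linear axis) of the 10 genes on every array, with a panel per gene and the preadipose lines left of the non-adipogenic lines. Points are arrays, solid bars are line means and dotted bars are the background of each line. The arrays of the classes do not overlap for Fgf7 and Spry2, and Swiss 19 lies with the non-adipogenic lines for Spry1.

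Fgf7, also called keratinocyte growth factor, is a mesenchymal ligand for the epithelial isoform of Fgfr2. Its probe set 1438405_at had scaled intensities of 10041, 10091 and 9043 in Swiss 2, 9094, 8134 and 9175 in Swiss 8, 9519.9, 9792 and 9989.5 in Swiss 9, and 8589 and 8720.2 in Swiss 19. In the non-adipogenic lines it had 7612, 7283 and 7143 in Swiss 3, 7690.5, 6947 and 7509 in Swiss 5, and 7089, 6973.5 and 6423.5 in Swiss 22. Every preadipose array was above every non-adipogenic array. The class means were 9237 ± 591 in preadipose lines and 7185 ± 310 in non-adipogenic lines (SD, n = 4 and 3 lines), a 1.29-fold difference. The log2 difference was 0.31 ± 0.070 (SE), with an unadjusted p of 0.00252 and an adjusted p of 0.0822. The other probe set, 1422243_at, ran from 8641 to 10263 on the preadipose arrays and from 5862 to 7688 on the non-adipogenic arrays, again without overlap. Its class means were 9126 ± 134 in preadipose lines and 6870.3 ± 584 in non-adipogenic lines, and its log2 difference was 0.37 (adjusted p = 0.0981 in the fit over all probe sets). The direction depended on the scaling: with arrays centred on their medians the difference was -0.24, and without normalization -0.37. The median of the 500 genes nearest to Fgf7 in mean level moved with it, being -0.01 after quantile normalization, -0.57 after median centring and -0.70 without normalization. Fgf7 lay 0.32 above that median after quantile normalization and 0.33 above it with median centring. Centring shifts all genes by the same constant, so the 0.33 without normalization follows by construction. Within the dim arrays alone the difference was 0.20 (adjusted p = 0.445) and within the bright arrays 0.31 (adjusted p = 0.531).

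Fgf10, a ligand of the same receptor isoform, had a difference of the opposite sign after quantile normalization, and of the same sign with median centring (-0.55, with Fgf7 at -0.24) and without normalization (-0.68, with Fgf7 at -0.37). It had scaled intensities of 469.8, 289.3 and 158.7 in Swiss 2, 259, 99.4 and 222.7 in Swiss 8, 161.9, 123 and 151.7 in Swiss 9, and 194.6 and 146.6 in Swiss 19. The non-adipogenic arrays had 608.7, 385 and 541.9 in Swiss 3, 414.4, 554 and 321 in Swiss 5, and 362.9, 339.8 and 265.5 in Swiss 22. The arrays of the classes overlapped, through Swiss 2, but the line means did not, since the highest preadipose line (Swiss 2, 306) lay just under the lowest non-adipogenic line (Swiss 22, 323). On average over lines, levels were 204 ± 70.8 in preadipose lines and 422 ± 94.8 in non-adipogenic lines (SD, n = 4 and 3 lines), a 2.07-fold difference. The log2 difference was -0.42 ± 0.085 (SE), with an unadjusted p of 0.00130 and an adjusted p of 0.0616. It was -0.49 within the dim arrays (adjusted p = 0.125) and -0.48 within the bright arrays (adjusted p = 0.489). Leaving out 1 array could take it past the threshold: the adjusted p was 0.0301 without replicate 1 of Swiss 2, and 0.0471 without replicate 3 of Swiss 22.

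Fgf2, the basic fibroblast growth factor, was above background in no line. Its probe set had scaled intensities of 4.10 to 163 on the preadipose arrays and 0.974 to 159 on the non-adipogenic arrays, a range that spans the background, so no level and no fold is given. The F test among the lines did not pass for it (adjusted p = 0.237).

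The promoters of Fgf7 and Fgf10 are shown because, of the 3 ligands described here, these had line means that did not overlap between the classes. Windows of 300 bases, from 250 before to 50 after the transcription start, were taken from RefSeq on GRCm38.p6 for 9 of the 10 genes, all but Fgfr1. The Fgf7 window is chr2:126034408-126034707 on the plus strand, and the Fgf10 window is chr13:118714449-118714748 on the plus strand, each written 5′ to 3′. They were searched on both strands for CCGGAA, the core of sites for ETS factors, and for TGANTCA, the AP-1 site, since both factor families are known targets of ERK signalling. Neither window holds either motif, so no base is in capitals.
Fgf7: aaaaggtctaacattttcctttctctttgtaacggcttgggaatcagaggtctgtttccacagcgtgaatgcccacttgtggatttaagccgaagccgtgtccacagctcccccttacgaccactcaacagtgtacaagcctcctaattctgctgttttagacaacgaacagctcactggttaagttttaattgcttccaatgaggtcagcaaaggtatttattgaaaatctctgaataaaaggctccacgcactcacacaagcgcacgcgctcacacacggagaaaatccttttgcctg
Fgf10: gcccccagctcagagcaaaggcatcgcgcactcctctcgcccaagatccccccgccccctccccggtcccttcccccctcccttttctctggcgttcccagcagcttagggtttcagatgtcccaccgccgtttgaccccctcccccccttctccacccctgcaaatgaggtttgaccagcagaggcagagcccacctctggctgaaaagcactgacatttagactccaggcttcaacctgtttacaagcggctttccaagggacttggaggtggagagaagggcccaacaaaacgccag
Over all genes in the table, 16.7% had a window with the ETS core and 8.97% had one with the AP-1 site. Among the 9 genes with a window, 2 had the ETS core (Fgfrl1 and Spry2) and 0 had the AP-1 site.

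None of the receptors passed between the classes. Fgfr1, the receptor that mesenchymal cells mainly use, had scaled intensities of 5027, 4451 and 5018 in Swiss 2, 3541, 4156 and 4426 in Swiss 8, 3724, 4129 and 3903 in Swiss 9, and 3674 and 3424 in Swiss 19. Among non-adipogenic lines it read 4542, 5512 and 5004 in Swiss 3, 3605, 3188 and 3463 in Swiss 5, and 4053, 4229 and 4191 in Swiss 22. Each class thus held high and low lines, with Swiss 3 and Swiss 2 at the top and Swiss 19 and Swiss 5 at the bottom. Means over lines came to 4085 ± 540.0 in preadipose lines and 4199 ± 801 in non-adipogenic lines, with a log2 difference of -0.03 ± 0.144 (SE, adjusted p = 0.959). Its sum of squares over the arrays lay 87.2% between lines of a class and 0.267% between the classes. The second probe set, 1424050_s_at, put Swiss 3 and Swiss 2 at the top and Swiss 5 at the bottom too (4044, 3942 and 2751), and its class difference was 0.0014. The third, 1436551_at, held all line means within 416 to 507 and did not pass among the lines (adjusted p = 0.912 in the fit over all probe sets).

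Fgfr2, the receptor whose epithelial isoform binds Fgf7 and Fgf10, had scaled intensities of 648, 586 and 610.4 in Swiss 2, 632, 637 and 671 in Swiss 8, 521, 523 and 418 in Swiss 9, and 856 and 1015 in Swiss 19. The non-adipogenic lines gave 963, 1110.3 and 1226.5 in Swiss 3, 688, 615 and 939 in Swiss 5, and 653, 797 and 829 in Swiss 22. Swiss 19 was the high line of the preadipose class and Swiss 3 that of the non-adipogenic class, so the classes overlapped. The class means were 671 ± 189 in preadipose lines and 869 ± 200.1 in non-adipogenic lines, with a log2 difference of -0.21 ± 0.133 (SE, adjusted p = 0.527). Its other probe set above background, 1420847_a_at, also put Swiss 19 at the top of the preadipose lines, at 656 against 398 to 415 in the rest. The third probe set, 1443211_at, was above background in Swiss 3 alone, and none of the probe sets was assigned here to an isoform. Within the dim arrays the difference was -0.49 (adjusted p = 0.108), and within the bright arrays 0.02 (adjusted p = 0.997).

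Fgfr3, a receptor known for its role in cartilage and bone, lay near background. It was above background in 2 of 4 preadipose lines (Swiss 9 and Swiss 19) and in 2 of 3 non-adipogenic lines (Swiss 3 and Swiss 5). Its class means were 82.4 ± 40.9 in preadipose lines and 138 ± 54.0 in non-adipogenic lines, with a log2 difference of -0.14 (adjusted p = 0.489). Both classes held lines that were not above background, so no fold is given. Its second probe set gave a difference of the other sign, 0.08. Within the dim arrays the first gave -0.27 (adjusted p = 0.289) and within the bright arrays 0.02 (adjusted p = 0.992).

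Fgfrl1, a receptor that binds FGF ligands but has no tyrosine kinase domain, had lower line means in 3 of the preadipose lines than in any non-adipogenic line. Its probe set 1447878_s_at had scaled intensities of 929.6, 687 and 1148 in Swiss 2, 1161, 876 and 1472 in Swiss 8, 1559.7, 1576 and 1147 in Swiss 9, and 1856 and 1678 in Swiss 19. In the non-adipogenic lines it had 1665, 1441 and 1637 in Swiss 3, 1579.5, 1718 and 1518 in Swiss 5, and 1951, 1939 and 1837 in Swiss 22. Swiss 19 lay above Swiss 3 and Swiss 5, so the line means overlapped. On average over lines, levels were 1321 ± 362 in preadipose lines and 1698 ± 183 in non-adipogenic lines, a 1.29-fold difference, with a log2 difference of -0.28 ± 0.143 (SE, adjusted p = 0.417). The second probe set, 1451912_a_at, had class means of 532 ± 164 in preadipose lines and 881 ± 77.2 in non-adipogenic lines, a 1.66-fold difference without overlap of line means. Its log2 difference was -0.44 (adjusted p = 0.208 in the fit over all probe sets), and 1 array of Swiss 2 stood at 69.7 beside 537 and 419 in its line. For 1447878_s_at the difference was -0.33 within the dim arrays (adjusted p = 0.390) and 0.04 within the bright arrays (adjusted p = 0.985).

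**Figure D2:**
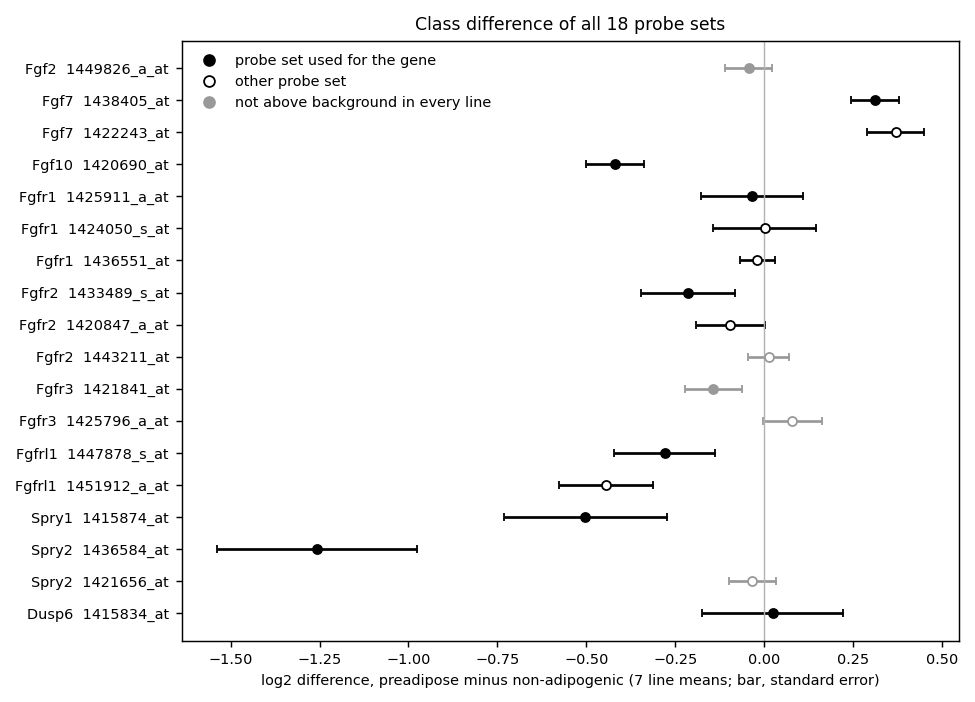
Log2 difference, preadipose minus non-adipogenic, of all 18 probe sets on quantile-normalized values, with bars for the standard error from the 7 line means. Filled points are the probe sets used for a gene and grey points were not above background in every line. Both Fgf7 probe sets lie to the right of 0, at 0.31 and 0.37, and Fgf10 and Spry2 1436584_at lie to the left, at -0.42 and -1.26. With arrays centred on their medians, Fgf7, Dusp6 and Fgf2 change sign, to -0.24, -0.26 and 0.01.

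Spry2, a Sprouty protein that inhibits signalling from receptor tyrosine kinases to ERK, had the largest range of line means among the 10 genes, 2.40 on the log2 scale. Its probe set 1436584_at had scaled intensities of 1567, 1328 and 1347 in Swiss 2, 1870.1, 1755 and 1395 in Swiss 8, 1252, 1361 and 1196 in Swiss 9, and 607 and 601 in Swiss 19. The non-adipogenic arrays had 5395, 5273 and 4902 in Swiss 3, 3469.9, 3299.7 and 3126 in Swiss 5, and 2630.3, 2659.7 and 2809 in Swiss 22. The highest preadipose array (1870.1) lay below the lowest non-adipogenic array (2630.3). Means over lines came to 1240.3 ± 456 in preadipose lines and 3729 ± 1299.9 in non-adipogenic lines (SD, n = 4 and 3 lines), a 3.01-fold difference. The log2 difference was -1.26 ± 0.280 (SE), with an unadjusted p of 0.00233 and an adjusted p of 0.0788. The classes took 72.8% of its sum of squares, the lines within them 26.2% and the arrays of a line 0.967%. With brightness as a block the log2 difference was -1.73 (adjusted p = 0.0117), within the dim arrays, against Swiss 3 alone, -1.601 (adjusted p = 0.0330), and within the bright arrays, for Swiss 19 alone, -1.86 (adjusted p = 0.302). The dim arrays of Swiss 3, at 5395 and 5273, were the highest of all 20. The second probe set, 1421656_at, was within 68.1 to 146 in every line, close to background, and did not separate the classes (log2 difference -0.03).

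Spry1, another Sprouty inhibitor, separated Swiss 19 from the other preadipose lines. It had scaled intensities of 406, 457 and 297 in Swiss 2, 894, 1066 and 581 in Swiss 8, 609.8, 493 and 469 in Swiss 9, and 1298 and 1396 in Swiss 19. Among non-adipogenic lines it read 1329.8, 1244 and 1286 in Swiss 3, 1399.7, 1380.1 and 1183 in Swiss 5, and 1052, 1114 and 1211 in Swiss 22. Swiss 19 had the highest line mean of the 7, while Swiss 2, Swiss 9 and Swiss 8 had the lowest 3. The class means were 776 ± 427 in preadipose lines and 1244.5 ± 104 in non-adipogenic lines, a 1.604-fold difference, with a log2 difference of -0.50 ± 0.229 (SE, adjusted p = 0.353). Without Swiss 19 it was -0.70 (adjusted p = 0.0717). Within the dim arrays it was -0.76 (adjusted p = 0.183), and within the bright arrays, where Swiss 19 was the preadipose line, 0.08 (adjusted p = 0.9505). The dim arrays of Swiss 3 had 1329.8 and 1244, beside 1286 on its bright array.

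Dusp6, the cytoplasmic phosphatase that removes phosphate from ERK, varied between lines without following class. It had scaled intensities of 258, 478 and 309 in Swiss 2, 479.8, 434 and 236 in Swiss 8, 639.5, 562 and 554 in Swiss 9, and 291 and 276 in Swiss 19. The non-adipogenic lines gave 269, 27.3 and 215 in Swiss 3, 459, 717 and 563 in Swiss 5, and 508, 378 and 523 in Swiss 22. Swiss 9 and Swiss 5 were the high lines and Swiss 3 the low one, with 1 array of Swiss 3 under background. On average over lines, levels were 400.1 ± 130.25 in preadipose lines and 407 ± 212 in non-adipogenic lines, with a log2 difference of 0.02 ± 0.198 (SE, adjusted p = 0.981). Without Swiss 3 the difference was -0.21 and without Swiss 9 it was -0.08. Within the dim arrays it was 0.62 (adjusted p = 0.161) and within the bright arrays -0.21 (adjusted p = 0.938).

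The promoters of both Sprouty genes are shown because these genes had the widest ranges among the lines. The Spry1 window is chr3:37639697-37639996 on the plus strand and the Spry2 window is chr14:105896770-105897069 on the minus strand, from the same RefSeq table and written 5′ to 3′. Capitals mark the ETS core, which is at bases 284 to 289 of the Spry2 window, after the transcription start, and is not in the Spry1 window.
Spry1: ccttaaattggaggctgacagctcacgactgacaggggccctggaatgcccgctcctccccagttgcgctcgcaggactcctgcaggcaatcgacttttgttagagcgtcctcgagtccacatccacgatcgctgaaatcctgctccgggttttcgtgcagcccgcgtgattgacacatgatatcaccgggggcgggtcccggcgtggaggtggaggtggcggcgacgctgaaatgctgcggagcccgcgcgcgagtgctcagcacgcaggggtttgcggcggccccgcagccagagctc
Spry2: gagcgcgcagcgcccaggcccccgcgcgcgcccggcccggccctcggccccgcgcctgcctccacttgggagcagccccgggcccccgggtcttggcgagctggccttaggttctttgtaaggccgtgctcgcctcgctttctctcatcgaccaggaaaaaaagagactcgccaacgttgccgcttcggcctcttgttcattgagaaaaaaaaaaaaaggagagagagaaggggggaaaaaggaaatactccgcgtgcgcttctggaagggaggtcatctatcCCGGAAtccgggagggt
A match of these letters is a description of the window and says nothing about binding in these cells.

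Among the preadipose lines, the F test passed for 5 of the 10 genes (Fgfr1, Fgfr2, Fgfrl1, Spry1 and Spry2), against 23.1% of all genes. Among the non-adipogenic lines it passed for 4 (Fgfr1, Fgfr2, Spry2 and Dusp6), against 16.4% of all genes. For Spry1 the adjusted p was 1.96e-05 among the preadipose lines and 0.521 among the non-adipogenic lines, and for Dusp6 it was 0.0547 and 0.000988. Whether the classes differed in this was not tested. The tests within a class set bright Swiss 19 against dim preadipose lines, and Swiss 3, with 2 dim arrays, against bright lines. The part of brightness in these calls was not tested. Neither ligand above background passed within a class: for Fgf7 the adjusted p was 0.239 among preadipose and 0.161 among non-adipogenic lines, and for Fgf10 0.552 and 0.491. The second Fgf7 probe set did pass among the non-adipogenic lines, with Swiss 22 the low line (adjusted p = 0.0140 in the fit over all probe sets). These calls depended on the scaling. With arrays centred on their medians 8 of the 10 genes passed among preadipose lines and 6 among non-adipogenic lines, and without normalization 9 and 8. Fgf7 then passed within both classes (adjusted p = 5.78e-08 among preadipose and 3.08e-06 among non-adipogenic lines with centring), and Fgf10 did so without normalization (0.00480 and 0.0155). Among non-adipogenic lines, centring also took Spry1 (adjusted p = 3.34e-05) and Fgfrl1 (4.81e-07) past the threshold, and Spry2 lost its call (0.103). In the sum of squares, 71.5% for Fgf7, 56.4% for Fgf10 and 45.1% for Spry1 lay between the classes. Single arrays decided 3 of these calls. The call of Fgfr2 among preadipose lines was lost without replicate 2 of Swiss 19 (adjusted p = 0.123), that of Fgfrl1 among preadipose lines without replicate 1 of Swiss 19 (adjusted p = 0.0583), and that of Fgfr2 among non-adipogenic lines without replicate 3 of Swiss 3 (adjusted p = 0.0680). Dusp6 passed among preadipose lines in 5 of 20 fits that left out an array (replicate 2 of Swiss 2, replicates 1 and 3 of Swiss 8, and replicates 1 and 2 of Swiss 3, adjusted p 0.0243 to 0.0493), and kept its call among non-adipogenic lines without the low array of Swiss 3 (adjusted p = 0.0105). The call of Fgfr3 among the 7 lines (adjusted p = 0.0478) was lost in 15 of 20 such fits.

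For each gene the lines were sorted by its own line means, so neighbours have small gaps by construction, which favours few calls. In the pairs of lines compared, 1.56% to 25.6% of all genes passed, without such sorting by their own levels. Of 60 neighbour pairs over the 10 genes, 4 passed. Spry2 gave 3 of them, and its order fell into steps. From the top, Swiss 3 lay above Swiss 5 by 0.64 on the log2 scale (adjusted p = 1.03e-05, where 15.0% of all genes passed), and Swiss 5 and Swiss 22 did not pass (adjusted p = 0.118). Swiss 8, the highest preadipose line, lay below Swiss 22, with Swiss 22 minus Swiss 8 at 0.52 (adjusted p = 9.39e-05, where 16.2% of all genes passed). Swiss 8, Swiss 2 and Swiss 9 followed without a pair that passed. Swiss 19 was lowest, with Swiss 9 above it by 0.69 (adjusted p = 3.16e-05, where 9.70% of all genes passed). Fgfr1 gave the remaining pair: Swiss 2 lay above Swiss 22 by 0.25 (adjusted p = 0.0380, where 18.2% of all genes passed). Each of the 4 pairs set a line with dim arrays against a line whose arrays were all bright, and the part of brightness was not tested. For Spry1 the order ran from Swiss 19 through Swiss 3, Swiss 5, Swiss 22, Swiss 8 and Swiss 9 to Swiss 2, with no neighbours that passed, the lowest adjusted p being 0.0654 between Swiss 8 and Swiss 9. For Fgf7 it ran Swiss 2, Swiss 9, Swiss 19, Swiss 8, Swiss 3, Swiss 5 and Swiss 22, and for Fgf10 Swiss 3, Swiss 5, Swiss 22, Swiss 2, Swiss 8, Swiss 19 and Swiss 9, again with no neighbours that passed. For Dusp6 it ran Swiss 9, Swiss 5, Swiss 22, Swiss 8, Swiss 2, Swiss 19 and Swiss 3, likewise without such a pair.

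**Figure D3:**
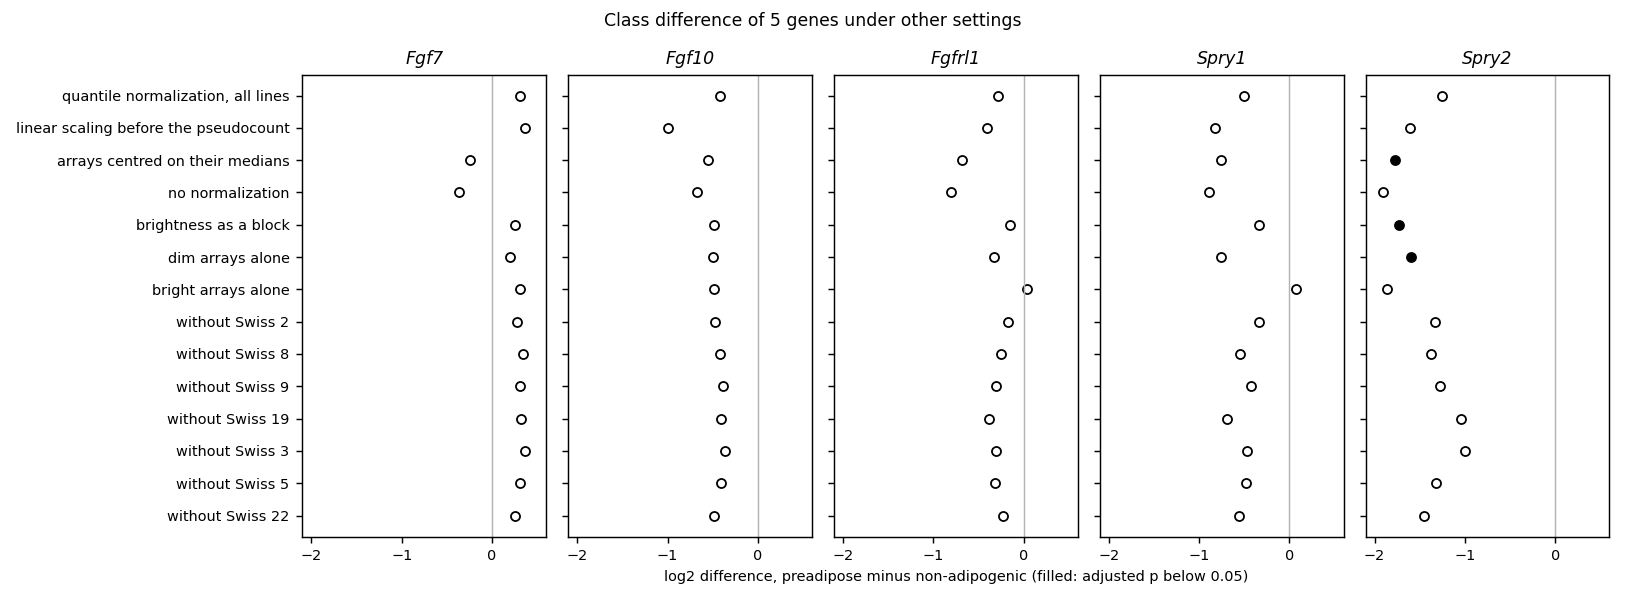
Log2 difference, preadipose minus non-adipogenic, of 5 genes under the scalings tried, with brightness as a block or within the dim or bright arrays, and with each line left out. Filled points have an adjusted p below 0.05. Fgf10 and Spry2 stay to the left of 0 in every row, Spry2 between -1.91 and -0.999, while Fgf7 is at -0.24 and -0.37 with median centring and without normalization, and Spry1 is at 0.08 and Fgfrl1 at 0.04 within the bright arrays.

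Of the 45 pairs of the 10 genes, the 4 with the largest r in size over the 7 line means were Fgf10 with Spry2 (r = 0.91, Spearman's rho = 0.93), Fgfrl1 with Spry1 (r = 0.82, rho = 0.75), Fgfr2 with Dusp6 (r = -0.78, rho = -0.68) and Fgfr2 with Spry1 (r = 0.77, rho = 0.89). These are descriptions of 7 points, which share array brightness and class. Among 14002 named genes above background in at least 1 line, those most like Spry2 over the 7 lines were Nhlrc3 (r = 0.986), Wdr34 (r = 0.980) and Fis1 (r = 0.978). For Spry1 they were Phf2 (r = 0.975), Syde2 (r = 0.974) and Bach2 (r = 0.973), and for Dusp6 they were C2cd4c (r = 0.980), N4bp3 (r = 0.975) and Rars (r = 0.972). The ranges of line means of these genes were smaller than those of the gene they matched: Fis1 ranged over 0.93 on the log2 scale and Spry2 over 2.40.

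The other genes of the pathway were taken from 6 lists, of which 6 of 111 genes measured passed between the classes (5.41%, against 1.52% of all genes). None of the 6 passed with arrays centred on their medians or without normalization, or within the dim or the bright arrays. With a line left out, Fgfr1op2, Ptpn11 and Mcl1 each passed in 1 of 7 fits, Phlda1 in 2, and Hs3st1 and Lrig3 in 3. Over all genes the median log2 difference was 0.0033, and for the 10 genes described above it was -0.18, with 2 positive and 8 negative. The other 19 FGF ligands, of which 12 were above background in at least 1 line, gave 0 called genes. They gave 1 with an unadjusted p below 0.05 (15.6% of all genes did), 10 positive and 9 negative differences and a median of 0.01. Fgf23, an endocrine ligand known from bone, averaged 133 ± 52.1 in preadipose lines and 275 ± 76.7 in non-adipogenic lines (log2 difference -0.32, adjusted p = 0.130). Fgf3 averaged 198 ± 98.8 in preadipose lines and 127 ± 24.6 in non-adipogenic lines (log2 difference 0.16, adjusted p = 0.534). For either ligand the quantile-normalized line means did not overlap, but those of scaled intensity did. For Fgf23, Swiss 2 (204) lay above Swiss 5 (186), and for Fgf3, Swiss 3 (155) lay above Swiss 8 (134) and Swiss 19 (137). Swiss 2 was the highest line for Fgf3 (343), and its other probe sets were above background in 2 lines and 1 line. Of 13 genes listed as other receptors and cofactors, 1 rose and 0 fell, with a list median of -0.05. The one that rose was Fgfr1op2, named for its fusion with the human FGFR1 gene in a blood cancer and not for a role as a receptor. It stood at 1896 ± 115 in preadipose lines and 1289 ± 14.0 in non-adipogenic lines, 1.47-fold higher (adjusted p = 0.0239). Its log2 differences were 0.42 in all, 0.45 within the dim arrays and 0.30 within the bright arrays. Its other probe sets gave log2 differences of 0.16 and 0.03, and its direction reversed to -0.01 with arrays centred on their medians and to -0.14 without normalization.

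Heparan sulfate presents FGF ligands to their receptors. Of 25 genes for its carriers and enzymes, 0 rose and 1 fell, with 10 positive and 15 negative differences and a median of -0.07. Over all genes, 0.577% rose and 0.940% fell. The one that fell was Hs3st1, a heparan sulfate sulfotransferase, at 73.7 ± 28.9 in preadipose lines, of which 1 was above background, and 383 ± 106 in non-adipogenic lines, at least 3.53-fold lower (adjusted p = 0.0213), with log2 differences of -0.66 in all, -0.60 within the dim arrays and -0.75 within the bright arrays. Of 20 transducers from FRS2 to ERK, 0 rose and 1 fell, with a median of -0.04. It was Ptpn11, the phosphatase SHP2 that relays receptor signals to RAS, at 5094 ± 73.6 in preadipose lines and 6682 ± 486 in non-adipogenic lines, 1.31-fold lower (adjusted p = 0.0392). Its log2 difference was -0.37 in all, -0.46 within the dim arrays, -0.32 within the bright arrays, -0.91 with median centring and -1.04 without normalization. Its other probe sets gave log2 differences of 0.20 and -0.20, so they did not share a direction. Summed over the 20 transducers, scaled intensity was 31226 to 32070 in preadipose lines and 34928 to 35563 in non-adipogenic lines. Bright genes weigh most in this sum, and Ptpn11 and Shc1 (3606 in preadipose and 5000 in non-adipogenic lines) gave most of its gap. Of the 20 log2 differences, 8 were positive and 12 negative.

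Among 15 other feedback inhibitors, 0 rose and 1 fell (0.577% and 0.940% of all genes), with 10 positive and 5 negative differences and a median of 0.0083. Lrig3, a membrane protein of leucine-rich repeats, stood at 496 ± 40.6 in preadipose lines and 826 ± 33.1 in non-adipogenic lines, 1.66-fold lower (adjusted p = 0.0188). Its log2 difference was -0.40 in all, -0.43 within the dim arrays, -0.41 within the bright arrays, -0.69 with median centring and -0.82 without normalization. Of other feedback genes, Spry4, a Sprouty protein, had a log2 difference of 0.27 (adjusted p = 0.175) and Spred1, a Sprouty-related inhibitor, one of 0.14 (adjusted p = 0.695). Il17rd, an FGF inhibitor also called Sef, had -0.50 (adjusted p = 0.0659), but its other probe set, above background in 5 lines, gave 0.07. Other probe sets of Spry4 were above background in no line, and those of Spred1 went both ways. These 3 genes were picked after their values were seen.

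Among 19 transcripts that ERK signalling is known to induce, 1 rose and 1 fell (0.577% and 0.940% of all genes). They gave 14 positive and 5 negative differences and a median of 0.28. Phlda1, a pleckstrin-homology-like protein, stood at 2423 ± 375 in preadipose lines and 1249 ± 139 in non-adipogenic lines, 1.94-fold higher (adjusted p = 0.0285). Its log2 difference was 0.72 in all, 0.81 within the dim arrays, 0.61 within the bright arrays, 0.28 with median centring (adjusted p = 0.910) and 0.15 without normalization (adjusted p = 0.936). Mcl1, an inhibitor of apoptosis, stood at 1941 ± 53.9 in preadipose lines and 2617 ± 201 in non-adipogenic lines, 1.35-fold lower (adjusted p = 0.0310), with log2 differences of -0.34 in all, -0.30 within the dim arrays, -0.32 within the bright arrays, -0.82 with median centring and -0.95 without normalization. Genes of cell division are given beside this list: of 15, 0 passed and 6 had an unadjusted p below 0.05 (15.6% of all genes did), all 6 higher in preadipose lines, with 13 positive and 2 negative differences and a median of 0.38. Among them Mcm3 had a log2 difference of 0.85 (adjusted p = 0.168) and Pcna one of 0.80 (adjusted p = 0.0847). With median centring these were 0.31 and 0.22, and without normalization 0.19 and 0.10. Summed over the 15 division genes, Swiss 2 had a scaled intensity of 60827, Swiss 8 had 77057, Swiss 9 had 66418 and Swiss 19 had 52155, while Swiss 3 had 25295, Swiss 5 had 56087 and Swiss 22 had 53716. Summed over the 19 ERK-induced transcripts it was 39417, 56411, 62260 and 41505 in the same preadipose lines and 25477, 42429 and 40257 in the non-adipogenic lines. Swiss 3, the line with the most Spry2, was lowest in both sums, while Swiss 19, the line with the least, was highest in neither. Ccnd1 and Hmga2 were the brightest ERK-induced transcripts in every line and weigh most in that sum (4748 and 3969 in Swiss 3, 16334 and 19883 in Swiss 9). Other transcripts of the list went the other way, with Fos (570) and Egr3 (461) highest in Swiss 3. A link of either sum to Spry2 was not tested. The part of cell division in these differences was not tested.

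**Figure D4:**
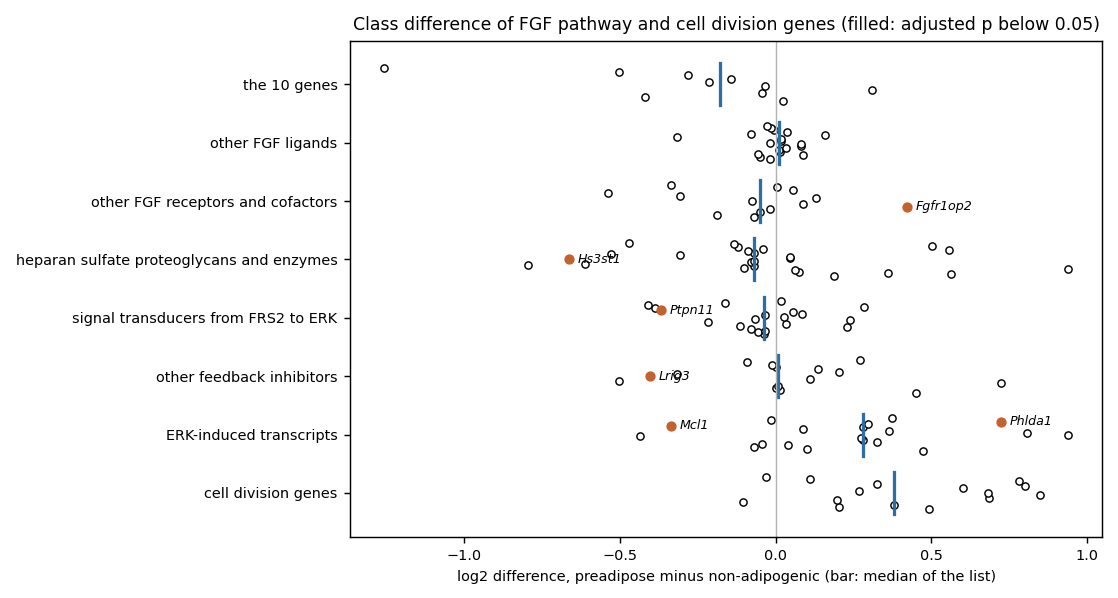
Log2 difference, preadipose minus non-adipogenic, of each gene of the 10 and of the other pathway lists, with a row per list and a bar at its median. Filled points passed the test (adjusted p below 0.05) and are named. Medians run from -0.18 for the 10 genes to 0.28 for ERK-induced transcripts and 0.38 for cell division genes, on quantile-normalized values, where the median of all genes is 0.0033. Fgfr1op2 reverses to -0.01 with arrays centred on their medians and to -0.14 without normalization.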

How the data were processed

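RNA of 20 samples from 7 clonal lines was hybridized to 1 oligonucleotide array each, after oligo-dT priming and labelling by in vitro transcription, per the labels' protocols. The deposited values are linear probe-set intensity values; for summarization, scaling and background correction, the method is not given in the sources used here. Array medians of log2(intensity + 32) differed by 0.607, a gap that the added 32 narrows, beside the 5.97-fold range of mean intensity. Arrays were therefore quantile-normalized on that scale. A gene was represented by its probe set with the highest mean, among those with 1 symbol. For readable levels each array was scaled to a mean of 500 with 2% trimmed at each end. Background was the 95th percentile of 27 bacterial control probe sets.

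Classes were compared with limma 3.58.1 in R 4.3.3 on 7 line means, and lines with its F test on 20 arrays, and p-values were adjusted by Benjamini-Hochberg over all genes, with a call below 0.05. A fold is the larger over the smaller class mean of scaled intensity; where a line of the dimmer class was not above background, it was set to background and "at least" stands before the fold. The scripts were tested on simulated data. Neither detection calls nor scan dates entered the fits. The genes and lists were chosen with earlier results of these data known, so their counts are descriptions. From each other list, the text names up to 4 called genes, or up to 2 uncalled ones with line means that did not overlap; Spry4, Spred1, Il17rd and Csf1r were named outside this rule, after their values were seen. Genes of like pattern were the 3 with the highest r for each of the 3 genes with the largest range, with clone and predicted names passed over.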

Additional observations from a re-analysis of the deposited data

Results flagged for a closer look

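One value stood apart from its group. The line mean of Fgfr2 on probe set 1420847_a_at in Swiss 19 was 656, against 406, 415 and 398 in Swiss 2, Swiss 8 and Swiss 9. Its gap to the nearest line was 0.933 of the range of the 4 preadipose lines, above the Dixon 95% critical value for 4 values, which chance passes in about 1 in 20 groups. The arrays of Swiss 19 read 595 and 716 and were bright, while those of the other 3 preadipose lines were dim. The non-adipogenic lines stood at 642, 497 and 461 in Swiss 3, Swiss 5 and Swiss 22, and the dim arrays of Swiss 3 read 486 and 611. The part of brightness in this gap was not tested.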

How the results depend on the processing

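Class calls over all genes (276) were 7 with arrays centred on their medians, 2 without normalization (median of all genes -0.19), 422 without genes at background in every line, 160 with the second probe set of each gene, 2060 with line as a random block, and 87 with linear scaling before the pseudocount, an alternative chosen after seeing the data. Within the dim arrays, with Swiss 3 as the lone non-adipogenic line, they were 386, and within the bright arrays, with Swiss 19 as the lone preadipose line, 0, where limma gave 1574 genes an unadjusted p below 0.05. Leaving out 1 line gave 55 (Swiss 22) to 470 (Swiss 19) calls, with 59 for Swiss 5, 79 for Swiss 3, 85 for Swiss 8, 106 for Swiss 2 and 131 for Swiss 9 left out; leaving out 1 array gave 217 to 329. Calls among the 7 lines were 13703 with median centring, 13531 without normalization and 5950 to 6708 without 1 array. Among preadipose lines they were 12490, 12732 and 3116 to 4344, and among non-adipogenic lines 10751, 11527 and 2405 to 3141, with 1967 for the second probe set. Differences that changed sign were Fgf2 (0.010), Fgf7 (-0.24), Dusp6 (-0.26) and Fgfr1op2 (-0.010) with median centring; Fgf7 (-0.37), Dusp6 (-0.39), Fgf3 (-0.0085) and Fgfr1op2 (-0.14) without normalization; Fgfr1 (0.0014), Fgfr3 (0.079) and Ptpn11 (0.20) with the second probe set; and Fgfr2 (0.017), Fgfr3 (0.017), Fgfrl1 (0.036), Spry1 (0.077) and Dusp6 (-0.21) within the bright arrays. Without 1 line Dusp6 ran from -0.21 to 0.18 and Fgfr1 from -0.16 to 0.11, and without 1 array Dusp6 ran from -0.03 to 0.06. Spry2 passed between the classes with median centring (-1.78, adjusted p = 0.0431), pseudocount 8 (-1.51, adjusted p = 0.0457), without genes at background (adjusted p = 0.0399), with brightness as a block, within the dim arrays (against Swiss 3 alone) and with line as a random block (adjusted p = 2.00e-05), and in none of the 7 fits without 1 line (adjusted p 0.0662 to 0.189). Fgf10 passed with pseudocount 8 (-0.76, adjusted p = 0.0427), without genes at background (adjusted p = 0.0484) and with the random block (adjusted p = 0.0102), and Fgf7 (adjusted p = 0.000997) and Spry1 (adjusted p = 0.0172) with the random block alone. The random block rests on the 20 arrays, while the classes are made of 4 and 3 clones. Its p-values can thus understate the spread between clones, and its calls add no clones to the comparison. The 6 called list genes passed in 20 of 20 fits without 1 array, but each in at most 3 of 7 without 1 line and in none with median centring, without normalization, or within the dim or the bright arrays. With median centring, the median of the 500 genes nearest in level was -0.57 for Fgf7, -0.17 for Dusp6 and -0.45 for Spry2. After quantile normalization these medians were -0.01, -0.005 and 0.01. The cause of the changed calls and signs was not tested. Replicate numbers did not pair arrays: deviations of 57 same-numbered pairs correlated at -0.04 to 0.05, and 7 of 20 arrays correlated best with their own number. With a replicate block, class calls were 292, calls among the lines 6356, 4037 and 2909, and Fgf7, Fgf10 and Spry2 had adjusted p-values of 0.0848, 0.0633 and 0.0819. Signal near background limits Fgf2, Fgfr3 and the second Spry2 probe set.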
